A study of Mus musculus with 13 samples.

Results

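Histone marks were examined at 4 developmental regulator genes known for their roles outside blood, Sox2, Olig2, Pax6 and Foxa2, in mouse leukaemia cell lines. The genes were chosen by a fixed window of mm9 around each: Sox2 at chr3:34535000-34565000 (30 kb), Olig2 at chr16:91215000-91240000 (25 kb), Pax6 at chr2:105495000-105545000 (50 kb) and Foxa2 at chr2:147860000-147880000 (20 kb). Of 109165 peaks in the 9 deposited lists, 16 overlapped one of the 4 windows, and all 16 were H3K27me3 peaks. No mm9 annotation was used, so where a peak lies relative to a start site, exon or intron was not analysed here.

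The study mapped chromatin by immunoprecipitation and sequencing (ChIP-seq) to relate 2 histone marks to binding of NUP98-PHF23 (NP23), a leukaemia fusion protein. Lines 748T and 106A came from NP23 pre-T LBL of mice 748 and 106, and line 961C from NP23 AML of mouse 961, all on C57BL/6. Line 7298/2, from an SCL-LMO1 pre-T LBL on a C57BL/6 and C3H hybrid background, served as the control without the fusion and is called the SCL-LMO1 line here. All 4 lines grew without added cytokines, and neither the promoter that drove each transgene nor the age of the mice is given in the sources used here. Each line had 1 H3K27me3 and 1 H3K4me3 list, and 961C also had 1 list for NP23 itself. H3K4me3 lists held 16324 to 17696 peaks and H3K27me3 lists 4875 (SCL-LMO1) to 19469 (961C). Heights are taken here as read pileups, from their whole-number maxima, and sequencing depth cannot be told without read totals. With no antibody repeated within a line, differences between lines have no replicate check and were not tested.

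H3K27me3 is laid down by Polycomb repressive complex 2 and marks genes held silent in a lineage, while H3K4me3 marks promoters that are active or held ready. Regulators of other tissues with CpG-rich promoters are textbook Polycomb targets, and in embryonic stem cells many carry both marks at once. Sox2 is a transcription factor of pluripotent and neural stem cells. Olig2 specifies oligodendrocytes and motor neurons. Pax6 is the master regulator of eye development and also patterns the brain, and Foxa2 is a pioneer factor of endoderm, liver and the floor plate. Their NCBI gene identifiers are 20674 (Sox2), 50913 (Olig2), 18508 (Pax6) and 15376 (Foxa2).

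The promoters of the 4 genes are shown because all held more CpG than the median promoter, as many others do, while their marks differed. RefSeq (GRCm38.p6) lists 7 start sites for the 4 genes, and all 4 genes matched. For each gene the start with the most CpG is printed, 5′ to 3′ on the gene's strand, from 250 bases before to 50 bases after the start. Capitals mark each CG, a motif that reads the same on both strands.
Olig2: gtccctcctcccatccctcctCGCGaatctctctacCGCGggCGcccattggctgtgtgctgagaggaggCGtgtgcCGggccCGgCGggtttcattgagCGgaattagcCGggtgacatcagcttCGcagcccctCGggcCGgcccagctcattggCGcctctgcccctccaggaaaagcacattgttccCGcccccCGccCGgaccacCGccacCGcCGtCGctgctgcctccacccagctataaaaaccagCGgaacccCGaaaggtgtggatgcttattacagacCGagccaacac
Pax6: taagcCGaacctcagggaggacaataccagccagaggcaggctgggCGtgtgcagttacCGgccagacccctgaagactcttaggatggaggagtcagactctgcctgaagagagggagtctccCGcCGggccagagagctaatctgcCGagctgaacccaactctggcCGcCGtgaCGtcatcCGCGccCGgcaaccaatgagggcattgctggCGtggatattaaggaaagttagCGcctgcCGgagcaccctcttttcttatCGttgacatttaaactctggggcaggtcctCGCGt
Sox2: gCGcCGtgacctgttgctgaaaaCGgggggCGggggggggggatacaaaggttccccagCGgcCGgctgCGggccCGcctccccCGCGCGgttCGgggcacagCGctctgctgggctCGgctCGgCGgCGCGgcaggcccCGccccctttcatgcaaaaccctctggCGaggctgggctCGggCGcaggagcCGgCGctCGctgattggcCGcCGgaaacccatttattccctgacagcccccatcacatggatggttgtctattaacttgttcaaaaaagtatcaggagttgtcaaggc
Foxa2: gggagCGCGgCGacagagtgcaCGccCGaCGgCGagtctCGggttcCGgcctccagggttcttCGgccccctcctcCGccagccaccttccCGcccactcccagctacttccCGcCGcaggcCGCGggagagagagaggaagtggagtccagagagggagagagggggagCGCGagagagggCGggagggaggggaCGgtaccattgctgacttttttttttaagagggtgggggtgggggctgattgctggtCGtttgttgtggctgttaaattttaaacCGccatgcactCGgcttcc
These 300-base stretches held 25 CG in Olig2, 18 in Pax6, 27 in Sox2 and 23 in Foxa2, against a median of 7.00 over 32851 listed promoters, of which 94.6% held at least 1. The share of all promoters with as many was 18.4% for Olig2, 29.7% for Pax6, 15.5% for Sox2 and 21.5% for Foxa2. The other start of Pax6 held 16 CG, and the other 2 of Foxa2 held 12 and 13. Sox2, with the most CG of the 4, had no peak of either mark in its window, and Olig2, next in order, had the most H3K27me3.

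H3K27me3 was listed at Olig2 and Pax6 and at neither Sox2 nor Foxa2. In 961C, 2 of the 4 windows held a peak, with 14 peaks and 10794 bp covered. One window did so in the SCL-LMO1 line (1 of 4), with 2 peaks and 546 bp. Lines 748T and 106A had 0 of 4. No Polycomb protein was mapped, so the name Polycomb target can be set only beside this mark. A peak of it was listed at Olig2 and, with low peaks in 961C alone, at Pax6. Neither Sox2 nor Foxa2 had one in any of the 4 lines.

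As background, the genome was laid out in tiles of each window's length, and the share of tiles with an H3K27me3 peak was taken for each line. In 961C it was 8.11% at the length of the Sox2 window, 7.16% at that of Olig2, 11.4% at that of Pax6 and 6.18% at that of Foxa2. In the SCL-LMO1 line the shares were 4.07%, 3.47%, 6.11% and 2.88% in the same order, in 748T 5.02%, 4.31%, 7.38% and 3.65%, and in 106A 4.02%, 3.42%, 5.98% and 2.84%. Most tiles of the genome therefore held no H3K27me3 peak in any list, and the 0 of 4 windows in 748T and 106A is near this background. A window without a listed peak may still carry the mark below what these lists could call.

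**Figure D1:**
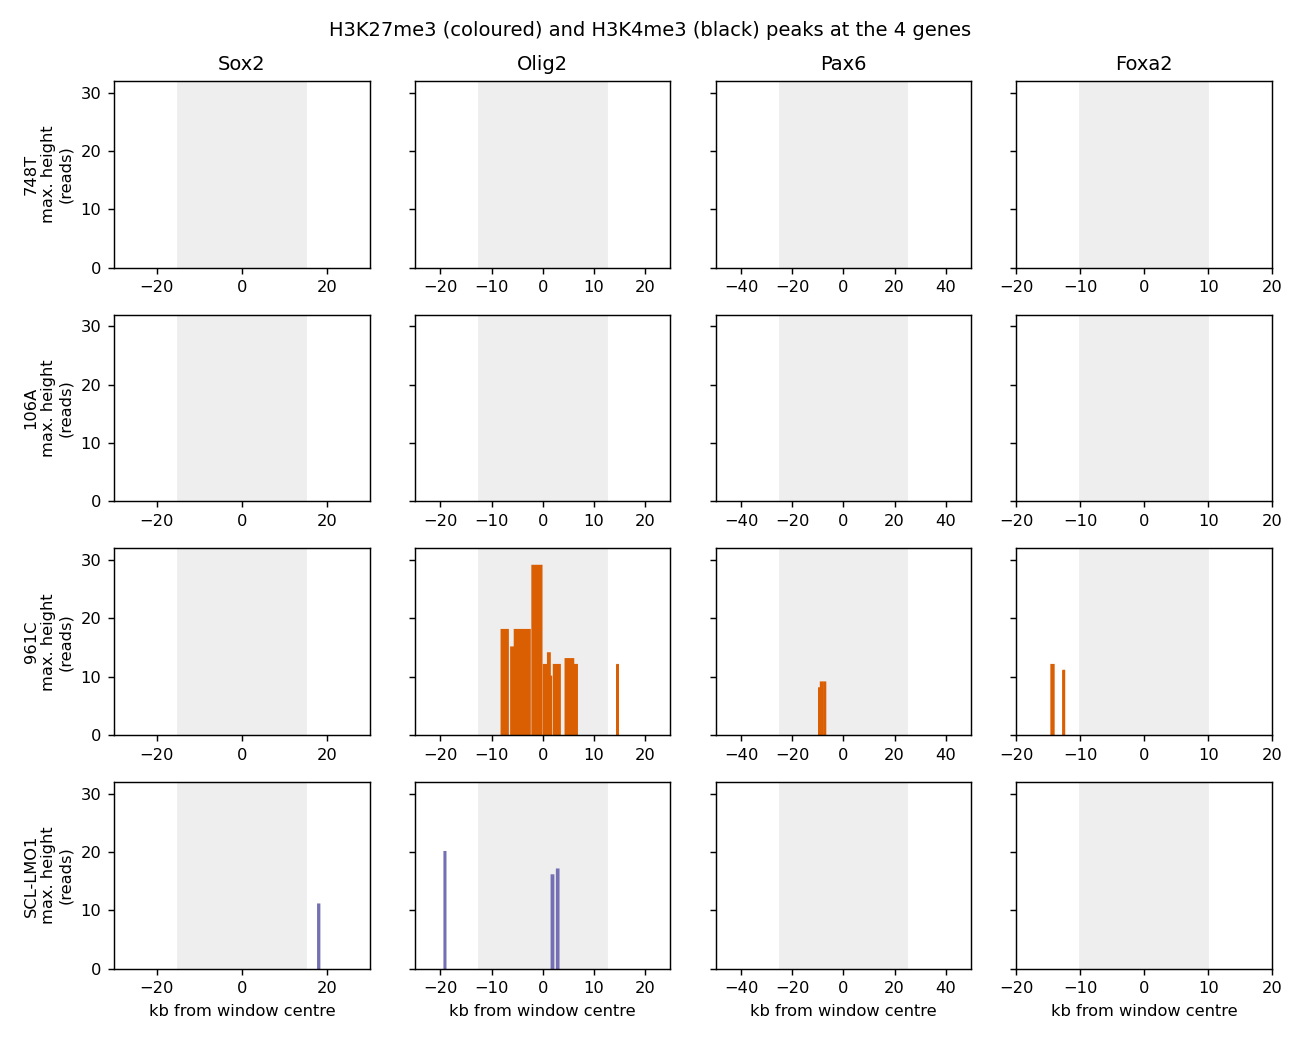
Peaks in and around the windows (grey), 1 column per gene and 1 row per line. The x axis is the distance from the window's centre in kb, bars give the maximum height of each H3K27me3 peak in reads (narrow peaks are drawn at the width of the line), and H3K4me3, which would be black, has no peak in view. Olig2 in 961C has 11 peaks, Pax6 in 961C has 3 low ones, Olig2 in the SCL-LMO1 line has 2, and peaks lie just outside the Sox2 and Foxa2 windows.

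At Olig2, 961C carried a broad H3K27me3 domain. Its 11 peaks covered 9760 bp, or 39.0% of the window, and the SCL-LMO1 line's 2 peaks covered 546 bp, or 2.18%. In 748T and 106A the covered length was 0 bp. The 11 peaks spanned 14682 bp, of which 66.5% was covered, and the gaps between them were 157 to 1177 bp (median 426 bp). Cut into 5 parts of 5 kb from the lower coordinate, the window was covered by 10.2%, 79.7%, 58.2%, 47.1% and 0%. The domain thus filled the middle of the window and ended before its upper edge. In the GRCm38.p6 gene table the next protein-coding gene above Olig2 is its paralogue Olig1, and the one below is 4932438H23Rik. Whether the domain reaches Olig1 was not analysed here.

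The widest of these peaks, chr16:91222062-91224945, was 2884 bp long with a mean height of 11 reads and a maximum of 18. Only 0.693% of the 19469 H3K27me3 peaks of 961C were as wide. The tallest lay beside it at chr16:91225509-91227237, 1729 bp long, with a mean of 11.9 reads and a maximum of 29, a height that 0.586% of the list reached. The next widest were chr16:91219489-91220655 (1167 bp, maximum 18 reads) and chr16:91229707-91230826 (1120 bp, maximum 12 reads). These 4 peaks of 1 kb or more made up 6900 of the 9760 bp. The other 7 were 113 to 810 bp wide and reached 10 to 15 reads, around the list's median maximum of 12 reads. Olig2 stood out in 961C by the width and number of its peaks, and by height in few of them.

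Each list gives a second track beside the sample's pileup, which was read as background from its low values because its label is not explained. Over the 11 peaks of Olig2 in 961C its mean height was 0 to 0.488 reads, and it was 0 at 4 of them. Averaged over the covered bases, the sample stood at 9.73 reads and the second track at 0.255, close to the mean of 0.222 over all H3K27me3 peaks of this list.

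Among all 105608 tiles of 25 kb, 60 (0.0568%) were covered by H3K27me3 of 961C at least as far as the Olig2 window, and 4 of these lay among the 3933 tiles of chromosome 16. The median tile with any peak had 481 bp covered. After joining peaks at most 1 kb apart, the larger part of the Olig2 domain, chr16:91219489-91230826 (11338 bp), ranked 41 by width among 12705 regions of 961C. A separate region of 2167 bp followed at chr16:91232004-91234170.

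**Figure D2:**
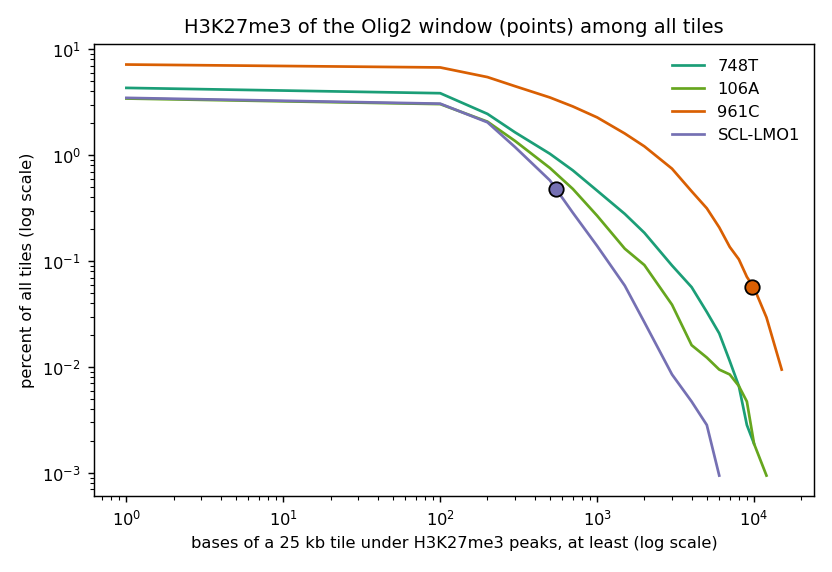
Percent of all 25 kb tiles (y axis, log scale) that had at least a given number of bases under H3K27me3 peaks (x axis, log scale), 1 line per cell line. Points mark the Olig2 window: 9760 bp in 961C, reached by 0.0568% of tiles, and 546 bp in the SCL-LMO1 line, reached by 0.484%. Lines 748T and 106A have no point, since nothing was covered there.

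Each of the other lines marked 50% to 75.0% of the 60 tiles as covered as Olig2. Of them, 45 (75.0%) held an H3K27me3 peak of 748T, 35 (58.3%) one of 106A and 30 (50%) one of the SCL-LMO1 line. The shares over all tiles were 4.31%, 3.42% and 3.47%. Of the 60, 9 (15.0%) lacked H3K27me3 in both 748T and 106A, as the Olig2 window did. The share of all tiles lacking both was not counted. With 4.31% and 3.42% marked in these lines, most tiles of the genome lacked both as well. H3K4me3 was present in at least 1 line in all but 27 of the 60 (45.0% without), while 83.6% of all tiles and the Olig2 window had none. These shares describe the lists and were not tested.

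In the SCL-LMO1 line, Olig2 held 2 short peaks. By maximum height they did not rise above this line's peaks within 100 kb outside the window, which reached 16 to 22 reads. The peak at chr16:91229271-91229557 was 287 bp long with a maximum of 16 reads, and the one at chr16:91230307-91230565 was 259 bp long with a maximum of 17 reads. Among this list's peaks, 6.73% and 4.88% were as tall. The first fell in a gap between 961C peaks, and the second lay wholly inside one, so that both lines shared 259 bp. Of all 105608 tiles of 25 kb, 511 (0.484%) were covered as far as this window in the SCL-LMO1 line, and 61 of these lay among the 3933 tiles of chromosome 16.

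The 4 neighbouring windows of the same length, 2 on each side, separate these lines. In 961C they were covered by 0 to 1216 bp, against 9760 bp at Olig2. In the SCL-LMO1 line all 4 held H3K27me3, covering 460 to 3516 bp, against 546 bp at Olig2. In 106A, 2 of the 4 held peaks, covering at most 525 bp, both on the side of higher coordinates, while the window itself had none. In 748T none of the 4 did. Over 100 kb on either side, outside the window, 748T had 0 H3K27me3 peaks, 106A had 4 (864 bp), 961C had 10 (2336 bp) and the SCL-LMO1 line had 14 (9187 bp). In 961C most of the H3K27me3 around Olig2 was thus in its window, and in the SCL-LMO1 line most was outside it.

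In the SCL-LMO1 line the second track was high around Olig2. Within 100 kb outside the window this line had 14 H3K27me3 peaks, with a second-track mean of 1.13 to 2.64 reads, against 0.425 and 1.03 in the window and a mean of 0.476 over the whole list. Over the H3K27me3 peaks of chromosome 16 the second track averaged 1.36 reads, 2.87 times its mean over those of all chromosomes. These peaks stood at 3 per Mb against 1.85 per Mb over the genome. In the other lines the same ratio was 1.11 (961C), 1.17 (748T) and 1.21 (106A). Over the H3K4me3 peaks of the SCL-LMO1 line on chromosome 16 the ratio was 1.15. Its H3K4me3 peaks within about 200 kb of the Olig2 window had second-track means of 1.775 to 3.192 reads, against 1.09 over its whole H3K4me3 list. The second track was thus high near Olig2 at peaks of both marks. Whether the rise follows the mark or this part of the chromosome was not tested. The part of the second track in the peaks of the SCL-LMO1 line at Olig2 was not tested.

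**Figure D3:**
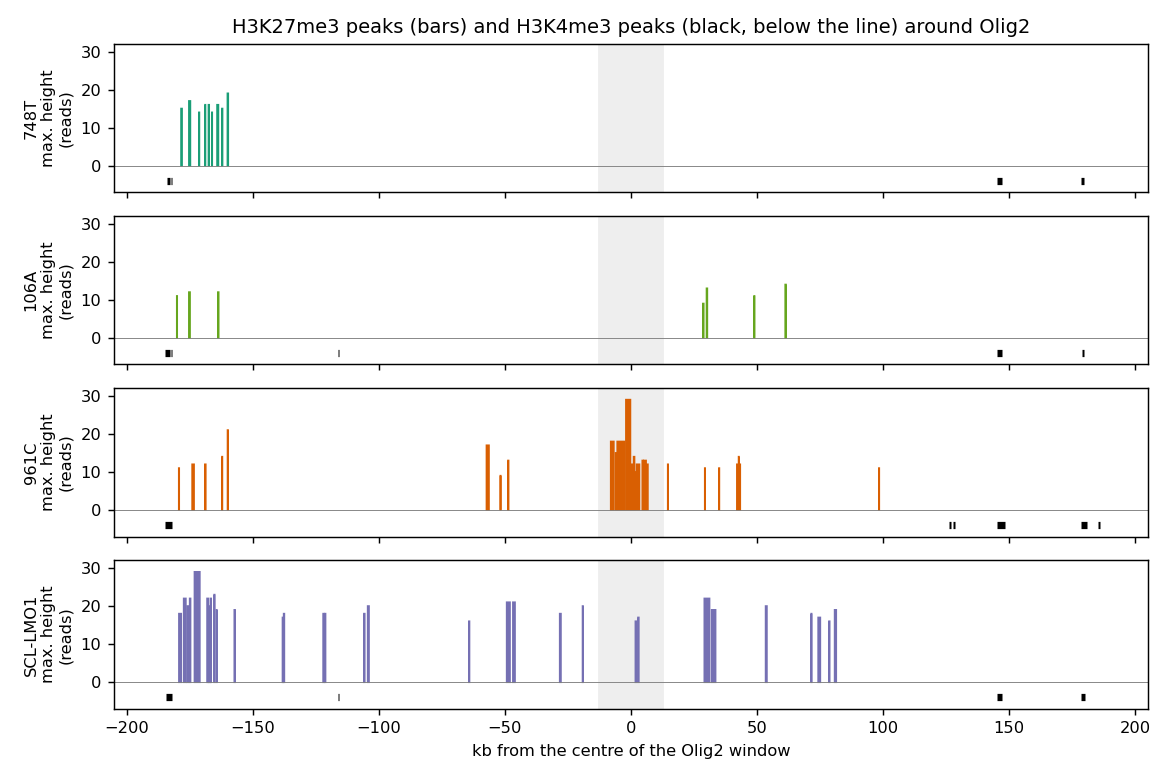
H3K27me3 peaks (bars, maximum height in reads on the y axis) and H3K4me3 peaks (black, below the line) within about 200 kb of the centre of the Olig2 window (grey), 1 panel per line, with the distance from the window's centre in kb on the x axis. In 961C the peaks gather in the window, in the SCL-LMO1 line they are scattered on both sides of it, and H3K4me3 stays at least 103 kb away from the window in every line.

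Pax6 carried 3 short and low H3K27me3 peaks in 961C, and none in the other 3 lines. In the GRCm38.p6 table Pax6 overlaps Pax6os1, its antisense RNA gene, and Elp4, a subunit of Elongator whose introns hold known Pax6 enhancers, so that a peak here cannot be given to 1 of the 3 by the window alone. The peaks lay at chr2:105510521-105510781, chr2:105511201-105511645 and chr2:105512499-105512826, within 2306 bp. Their widths were 261, 445 and 328 bp and their maxima 8, 9 and 9 reads. Together they covered 1034 bp, or 2.07% of the window, all in the second of its 5 parts of 10 kb. The mean height over them was 4.91 reads, and 97.3% to 99.1% of the list's peaks reached a maximum at least as high as theirs. The second track was at most 0.225 reads on average over any of the 3.

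By coverage the Pax6 window was unremarkable in 961C, since 4.05% of all tiles of 50 kb, and 35.7% of those with any peak, were covered as far. It was isolated, however. None of its 4 neighbouring windows held H3K27me3 in 961C, and the next peak of that line was 239 kb away. When only the taller 50% of each list entered, or the tallest peaks of each list in equal number, Pax6 held no peak. Chromosome 2 as a whole was denser in H3K27me3 than the genome in every line. In 961C it had 11.5 peaks per Mb against 7.36 per Mb over the genome, and 16.8% of its 50 kb tiles held a peak. The other lines, without a Pax6 peak, had 5.01 against 3.18 (748T), 2.79 against 2.12 (106A) and 3.12 against 1.85 (SCL-LMO1).

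**Figure D4:**
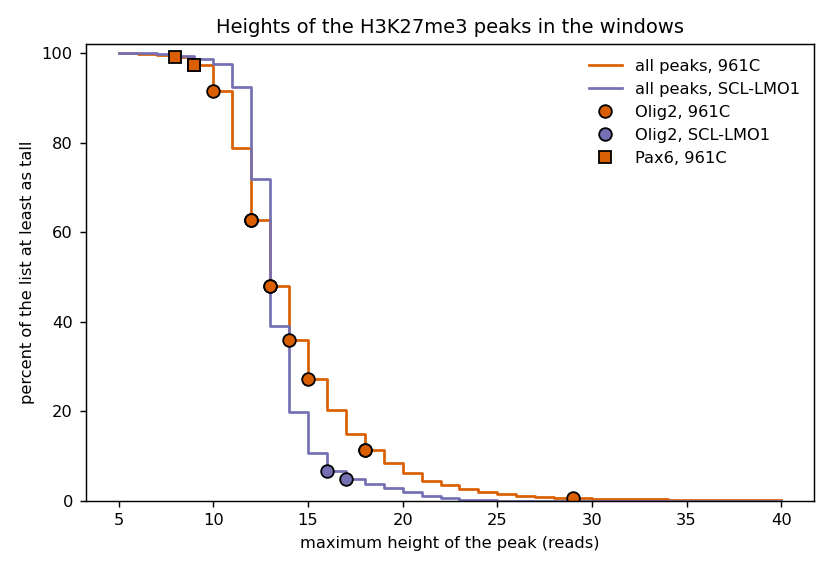
Maximum height in reads (x axis) of the H3K27me3 peaks in the windows (points) against the percent of the same list that was at least as tall (y axis), with the curve of each whole list. The 3 Pax6 peaks, at 8 to 9 reads, lie at the low end of the 961C list, and the Olig2 peaks run from 10 to 29 reads.

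Foxa2 had no peak in its window in any list, but 961C had 2 just below it. These were chr2:147855492-147855797 (306 bp, maximum 12 reads) and chr2:147857349-147857449 (101 bp, maximum 11 reads), 4203 and 2551 bp from the edge. Lengthening the windows by 50% brought both in, covering 407 bp. The nearest H3K27me3 peak was 689 kb away in 748T, 606 kb in 106A and 1347 kb in the SCL-LMO1 line. In the GRCm38.p6 table the protein-coding neighbours of Foxa2 are Pax1 and Sstr4, and which of them, if any, is nearer to these 2 peaks was not analysed here.

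Sox2, which the long non-coding gene Sox2ot overlaps, was likewise free of peaks, with 1 peak close by. The SCL-LMO1 line had a 230-bp peak at chr3:34567915-34568144, with a maximum of 11 reads, 2914 bp above the window. It too entered when windows were lengthened by 50%. The nearest H3K27me3 peak lay 410 kb away in 748T, 806 kb in 106A and 1513 kb in 961C. Thus 961C, which had the longest H3K27me3 list, was the line with the mark farthest from Sox2. Its list was sparse on chromosome 3 as a whole, with 4.09 peaks per Mb against 7.36 over the genome. The same held in 748T (1.84 against 3.18) and the SCL-LMO1 line (1.26 against 1.85). In 106A, chromosome 3 was denser in H3K27me3 than the genome, with 3.53 peaks per Mb against 2.12. Over these peaks the second track stood at 1.57 times its mean over all H3K27me3 peaks of 106A. For the H3K4me3 peaks of 106A on chromosome 3 the same ratio was 1.27.

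H3K4me3 was not listed at any of the 4 genes in any of the 4 lines. At the lengths of the Sox2, Olig2, Pax6 and Foxa2 windows, the share of tiles with an H3K4me3 peak was 13.1%, 11.5%, 18.6% and 9.73% in 748T and 11.9%, 10.5%, 17.2% and 8.81% in 106A. It was 13.4%, 11.8%, 19.2% and 9.92% in 961C and 13.7%, 12%, 19.4% and 10.1% in the SCL-LMO1 line. The 0 of 4 windows is again near the background. With no H3K4me3 peak, no window held both marks. The nearest H3K4me3 peak to Sox2 was 554 kb away in all 4 lines, and to Pax6 199 kb in all 4. To Foxa2 it was 618 kb away in every line but 961C, where it was 321 kb away. To Olig2 it was 133 kb away in 748T, 103 kb in 106A, 114 kb in 961C and 103 kb in the SCL-LMO1 line.

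With the H3K4me3 peaks of all 4 lines pooled, the stretch without any was 1236 kb around Sox2, 1197 kb around Foxa2, 504 kb around Pax6 and 242 kb around Olig2. The median such stretch of the genome was 23.0 kb. Long stretches hold much of the genome, however: 28.0% of it lay in stretches as long as that of Sox2, 28.9% for Foxa2, 49.0% for Pax6 and 62.6% for Olig2. Olig2, the gene with the most H3K27me3, was also the one nearest to H3K4me3.

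NP23 was not listed at any of the 4 genes in 961C, the line in which it was mapped. Its nearest peaks were 322 kb from Olig2, 610 kb from Sox2, 1470 kb from Foxa2 and 3406 kb from Pax6. Tiles with an NP23 peak were rare throughout the genome, at 1.42%, 1.19%, 2.29% and 0.962% for the same 4 lengths, and 0 of 4 windows is near that share. Among the 60 tiles as covered by H3K27me3 as Olig2, 1 held an NP23 peak.

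**Figure D5:**
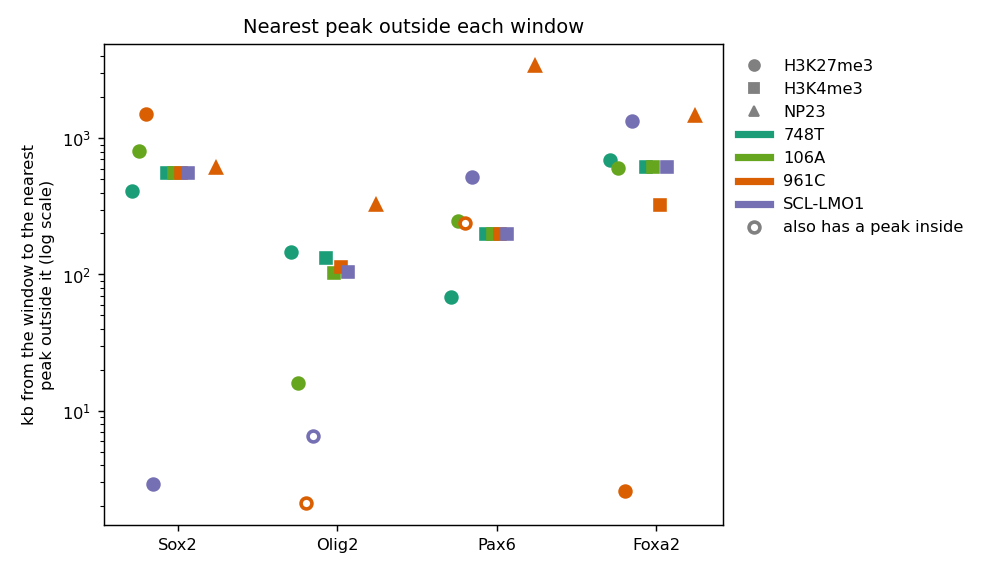
Distance in kb (y axis, log scale) from each window to the nearest peak outside it, for H3K27me3 (circles), H3K4me3 (squares) and NP23 (triangles, 961C only), coloured by line. Open symbols mark windows that also hold a peak inside. H3K4me3 lies at 103 to 618 kb in every case, while H3K27me3 runs from 2.10 kb at Olig2 to 1513 kb at Sox2, both in 961C.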

How the data were processed

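Peak lists of 9 of 13 samples were used, and the 4 input samples were not. CASAVA 1.9, BWA 0.5.9-r26 and build mm9 are named in the submitters' processing notes, which as given here name no peak caller or threshold. In each list deposited by the authors, 1 text field (another unit than the usual ones) holds the mean and maximum height of each peak, with no stated scaling, and the same for a second track, which 5 peaks lack. Heights were therefore ranked within a list.

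With Python 3.11.15 and numpy 2.4.6, peaks overlapping a window by at least 1 bp were assigned to it and covered bases were summed. Tiles ran from each chromosome's start to its furthest listed peak. The counting was tested on simulated data. Groups followed the labels' cell type and antibody. No test was run, since each line had 1 library per mark. The genes, windows and lists were chosen with earlier results of these data known. Peaks to be named were the widest and tallest of each window and line, and the others were picked after their values were seen. Planned lists of further developmental regulators and cell type markers were left out, as positions on mm9 could not be given for them. Alternatives were peak midpoints, taller peaks, lists of equal length, a height of at least 2 times the second track, longer or shorter windows, tiles shifted by 50% of their length, joined peaks, and each NP23 pre-T line alone.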

Additional observations from a re-analysis of the deposited data

How the results depend on the processing

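Both marks stayed absent from the windows in 748T and 106A, and H3K4me3 in all 4 lines. The value was 0 in all 200 alternative values of 748T, 106A and their mean, and in all 198 of H3K4me3. Most of these zeros were fixed in advance. Midpoints, taller peaks, lists of equal length, the second-track ratio and shorter windows can only keep or remove peaks. Only longer windows or joined peaks could have brought one in, and neither did. With both NP23 pre-T lines at 0 bp, the mean of that group without either line could only be 0 bp. In 961C the number of windows with H3K27me3 fell from 2 to 1 with the taller 50% of peaks and with lists of equal length, in both cases by loss of Pax6. The number of its peaks, 14, became 7 and 4 under these settings and 3 with peaks joined within 1 kb, and its covered length, 10794 bp, became 6224 bp with lists of equal length. In the SCL-LMO1 line the number of windows with H3K27me3 rose from 1 to 2 with windows lengthened by 50%, where Sox2 entered. Its peaks, 2, became 1 and its covered length, 546 bp, became 1295 bp when peaks were joined. These changes follow from how each alternative is built. Of 403 alternative values, 385 stayed within 1.5 times the main value, where a 0 that stayed 0 was counted as unchanged. Most of the 385 were such zeros, the 200 above among them, so this count says little about how stable the other values were. No paired analysis was possible because no antibody was repeated within a line and the labels carry no replicate numbers. The lists give no read totals, so a peak missing from a shorter list may lie below what that library could show.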

Other observations

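The stretch below the Olig2 window holds H3K27me3 in all 4 lines, a pattern noticed after the values were seen. With peaks of the 4 H3K27me3 lists joined within 5 kb, 177 regions of the genome held a peak of every line. The one nearest to Olig2, chr16:91047388-91070451 (23064 bp), ended 145 kb below the window. It held 9 peaks of 748T, 3 of 106A, 5 of 961C and 11 of the SCL-LMO1 line, covering 2324, 766, 1342 and 6238 bp, and no H3K4me3 peak of any line. Maximum heights were 14 to 19 reads in 748T, 11 to 12 in 106A, 11 to 21 in 961C and 18 to 29 in the SCL-LMO1 line, with second-track medians of 0, 0.495, 0.143 and 1.95 reads. In 748T this was the nearest H3K27me3 to Olig2. The order of 961C and 748T in covered length was thus opposite in this region and in the Olig2 window, where 961C had 9760 bp and 748T had 0 bp. For the other genes the nearest such region was 3845 kb (Sox2), 3894 kb (Pax6) and 4882 kb (Foxa2) away. With peaks joined within 1 kb, also chosen after seeing the data, 92 such regions were left and the distance was 151 kb for Olig2, 52408 kb for Sox2, 13654 kb for Pax6 and 4895 kb for Foxa2.

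A second place near Olig2 was marked in 3 lines. Beginning 16.0 kb above the window lay 2 peaks of 106A (chr16:91256044-91256306 and chr16:91257481-91257742), a 92-bp peak of 961C (chr16:91256784-91256875) and a 2009-bp peak of the SCL-LMO1 line (chr16:91256609-91258617). The SCL-LMO1 peak reached 22 reads, above the 17 reads of its tallest peak in the window. Its second track was higher too, at 1.87 reads on average against 0.425 and 1.03 over the peaks in the window. Over the 2 peaks of 106A the second track averaged 0.217 and 1.15 reads, and over the peak of 961C 0.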
